A study of Homo sapiens with 60 samples.

Results

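The genes FGA, FGB and FGG, which encode the chains of fibrinogen, the complement genes C3 and CFB, and SERPINA1, the gene of alpha-1-antitrypsin, were followed in A549, a line grown from a human lung carcinoma. The 6 genes were taken by name, after earlier results of these data were known, and found by mapping the Ensembl identifiers of the count table to symbols, which gave 6 of the 60675 genes of the table. All 6 were among the 17129 genes that passed the filter on low counts. The 60 libraries form 20 groups of 3, all harvested after 24 h. Water extracts of 6 crude drugs were each given at a low, a medium and a high dose. CR, from Coptidis Rhizoma, was used at 5.2, 26 and 130 µg/mL. SR, from Scutellariae Radix, was used at 9.2, 46 and 230 µg/mL. The other extracts were used at 20, 100 and 500 µg/mL and came from Zizyphi Fructus (ZF), Pinelliae Tuber (PT), Zingiberis Rhizoma Recens (ZRR) and Zingiberis Rhizoma (ZR), the last pair being forms of ginger. The PI3-kinase inhibitor wortmannin (10 µM) was also tested. The vehicle was DMSO, at 0.1% in the sample labels and at 2% in the series' design text. All groups are of 1 cell line, and nothing in the labels tells separate cultures from repeat samples of 1 culture. The p-values therefore measure only how these samples vary, and that variation may be technical.

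Fibrinogen is a secreted plasma glycoprotein that thrombin converts to fibrin in a clot. Hepatocytes are its main source, and lung epithelial cells are also known to make it; in the liver its genes respond to IL-6 through STAT3 together with C/EBP factors. C3 is the protein on which all complement pathways meet, and CFB supplies the protease subunit of the alternative pathway convertase that cleaves C3. Alpha-1-antitrypsin is the main inhibitor of neutrophil elastase in the lung. All of these proteins are known to rise in plasma in an acute phase response.

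The fibrinogen genes lie side by side on chromosome 4 of GRCh38 (GENCODE 29). FGB (ENSG00000171564) spans chr4:154562956-154571086 on the plus strand, FGA (ENSG00000171560) spans chr4:154583126-154590766 on the minus strand, and FGG (ENSG00000171557) spans chr4:154604134-154612967 on the minus strand. C3 (ENSG00000125730) spans chr19:6677704-6730562 on the minus strand, CFB (ENSG00000243649) spans chr6:31945650-31952084 on the plus strand, and SERPINA1 (ENSG00000197249) spans chr14:94376747-94390693 on the minus strand. CFB overlaps C2 and a read-through transcript on its own strand, and C3 overlaps the end of GPR108 on its own strand, so their counts are uncertain to the extent that shared reads were split.

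The RefSeq promoter table for GRCh38.p14 held 5 of the 6 genes, and C3 was not among them. Stretches upstream of the transcription start are shown because FGA, FGB and FGG fell together between the doses of CR and at the high dose of both gingers. In wortmannin they did not move together. For FGA (chr4:154590773-154590992, minus strand) and FGB (chr4:154562730-154562949, plus strand) they run from 250 to 31 bases before the start. For FGG (chr4:154612799-154612828, minus strand) and CFB (chr6:31945993-31946022, plus strand) only 30 bases around a match are shown. Capitals mark CTGGGAA, the core of IL-6 response elements, in FGB and FGG, the C/EBP site TTGCNNAA, on either strand, in FGA and FGB, and a match to the gamma-activated site TTCNNNGAA in CFB.
FGA: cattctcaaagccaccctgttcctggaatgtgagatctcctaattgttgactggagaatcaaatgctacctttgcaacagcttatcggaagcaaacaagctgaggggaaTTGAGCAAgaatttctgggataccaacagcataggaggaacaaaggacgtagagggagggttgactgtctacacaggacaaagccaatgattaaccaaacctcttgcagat
FGB: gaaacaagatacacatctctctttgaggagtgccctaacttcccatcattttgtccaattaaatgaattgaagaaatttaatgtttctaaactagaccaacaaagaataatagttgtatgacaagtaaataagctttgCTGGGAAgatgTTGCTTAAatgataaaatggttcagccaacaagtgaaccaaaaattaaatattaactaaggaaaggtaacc
FGG: gtgtgcaaaatCTGGGAAcctgacagtata
CFB: cgcttggatgTTCCGGGAAagtgatgtggg

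Both strands of the 250 bases before each start were searched. CTGGGAA began 112 bases before the start of FGB and 161 bases before that of FGG, and 9.15% of the 35116 promoters in the table held it. TTGCNNAA lay 101 bases before the start of FGB and 141 bases before that of FGA (9.05%). TTCNNNGAA, which can overlap CTGGGAA, lay 231 bases before the start of FGA and 92 bases before that of CFB (6.57%). The pattern of letters used for the NF-kB site had no match in the windows of the 5 genes (5.07%). NF-kB sites that differ from that pattern were not searched, so their absence from these windows is not shown. The matches given here are of letters only.

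The libraries held 17420358 to 36479611 estimated counts each, the lowest correlation of log2 CPM between replicates was 0.982, and 0 pairs of libraries were identical. Among A549 and lung epithelial markers, keratins KRT8, KRT18 and KRT7 had medians of 3290, 2510 and 2170 TMM-adjusted CPM (the count of a gene scaled to a common library size), while the surfactant genes SFTPB and SFTPC were at or near 0 and SFTPA1 was at 0 in all 60 libraries. Of 5 blood cell markers 1 passed the filter, with a summed level of 3.3 to 11.7 CPM, and PTPRC never had more than 1 count. Of 6 fibroblast and endothelial markers 1 passed, with a summed level of 3.11 to 6.19 CPM. Libraries differed in how steeply log2 CPM depended on log2 gene length, with slopes of 0.0932 to 0.355, and the 3 lowest slopes were those of ZR low replicate 3, ZF high replicate 2 and CR low replicate 3. Sample codes begin with another number in the vehicle than in the extracts, which cannot be told apart from treatment, while the doses of 1 extract share that number. The first number is shared by ZRR and ZR, by PT and SR, and by CR and ZF. It differs between these pairs and from wortmannin. Levels compared between extracts of different first numbers therefore carry the same limit.

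The fibrinogen genes were well expressed in A549 cells and the others covered a wide range. Over the 60 libraries the median level was 143 CPM for FGA, 153 CPM for FGB, 84 CPM for FGG, 29.7 CPM for C3, 0.733 CPM for CFB and 0.665 CPM for SERPINA1. By mean CPM these genes exceeded 92.1%, 92.8%, 84.9%, 65.5%, 18.8% and 15.8% of the 17129 tested genes, in the same order. Per kilobase of the longest transcript the median levels were 38.9 CPM for FGA, 77.3 CPM for FGB, 41.4 CPM for FGG, 5.64 CPM for C3, 0.256 CPM for CFB and 0.188 CPM for SERPINA1. CFB had 7 to 89 and SERPINA1 8 to 32 estimated counts in a library, so their values carry wide errors, whereas FGB had 1108 to 5533 and C3 433 to 2099.

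**Figure D1:**
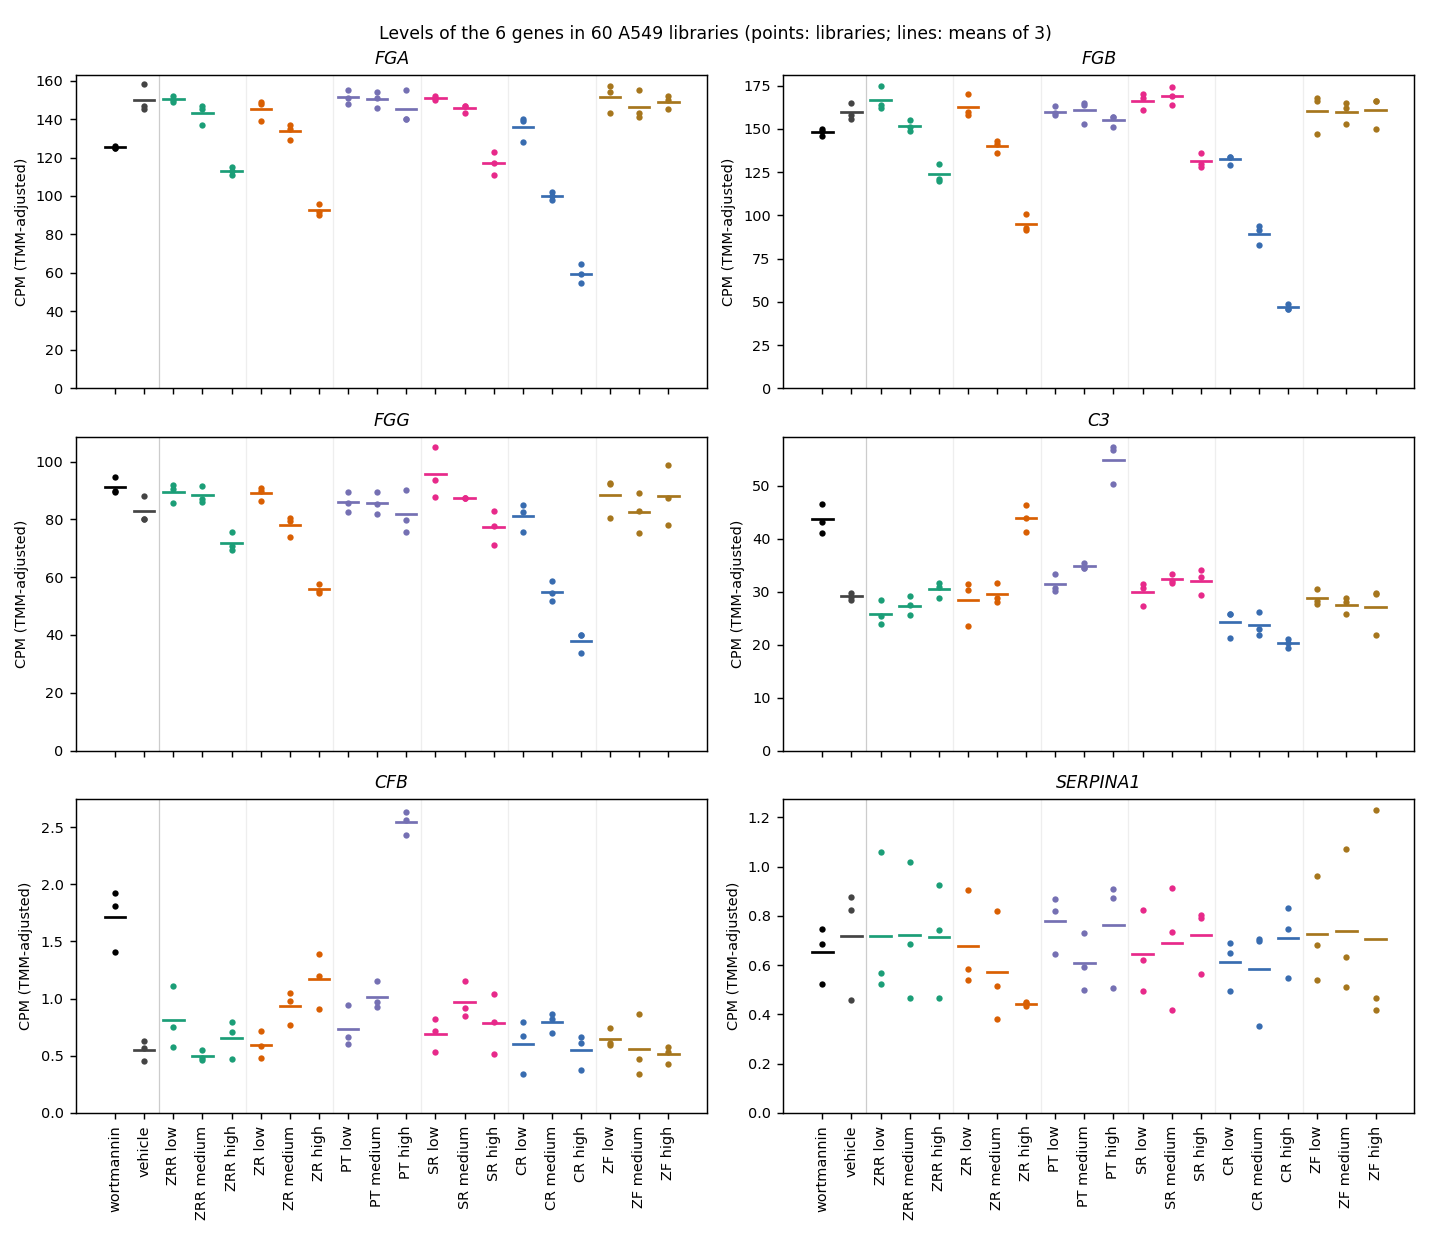
CPM (TMM-adjusted, linear axis from 0) of each of the 6 genes in all 60 libraries; points are libraries, lines are means of 3, and colours mark the treatments. FGA, FGB and FGG are lowest at the high dose of CR, while C3 and CFB are highest at the high dose of PT.

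The genes were chosen with earlier results of these libraries known, in which genes had been picked by high dose against vehicle, high against low dose and wortmannin against vehicle. Values in those comparisons are therefore given as a description with no test. Tests were made for high against medium dose, medium against low dose, and medium and low dose against vehicle. Each of these shares high-dose, low-dose or vehicle libraries with the comparisons used for choosing, so none of the p-values is independent of the choice. A gene was called where the adjusted p of edgeR's quasi-likelihood test (Benjamini-Hochberg over all tested genes) was under 0.05. In these bulk samples fewer cells expressing a gene and less RNA of it per cell cannot be told apart.

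CR gave the widest dose range of the fibrinogen genes. FGB, which encodes the B-beta chain, had 158, 156 and 165 CPM in vehicle libraries, 134, 129 and 134 CPM at 5.2 µg/mL, 93.9, 82.8 and 91.6 CPM at 26 µg/mL and 48.9, 45.8 and 46 CPM at 130 µg/mL. The 4 groups followed each other without overlap, each dose below the one before it. FGA, which encodes the A-alpha chain, had 147, 145 and 158 CPM in vehicle libraries, 140, 128 and 139 CPM at 5.2 µg/mL, 102, 97.7 and 100 CPM at 26 µg/mL and 64.4, 55 and 59.4 CPM at 130 µg/mL, again without overlap. FGG, which encodes the gamma chain, had 80.1, 80 and 88.2 CPM in vehicle libraries, 85.1, 75.6 and 82.4 CPM at 5.2 µg/mL, 58.7, 51.8 and 54.5 CPM at 26 µg/mL and 40.1, 33.7 and 40 CPM at 130 µg/mL. For FGG the low dose overlapped the vehicle and the medium and high doses lay below both. Of all tested genes, 25% were lower without overlap at 130 µg/mL than in vehicle libraries. The share for the steps between neighbouring doses of CR is not reported here.

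All 3 fibrinogen genes fell between the doses of CR. For the high against the medium dose the log2 fold changes were -0.93 ± 0.05 (SE) for FGB (edgeR adjusted p = 5.68e-19), -0.75 ± 0.05 for FGA (edgeR adjusted p = 2.27e-16) and -0.54 ± 0.08 for FGG (edgeR adjusted p = 1.13e-06). These were the genes called among the 6, each lower, where 3.94% of all tested genes were lower, and the median over the 6 was -0.54 against 0.006 over all tested genes. For the medium against the low dose they fell by 0.56 ± 0.05 on the log2 scale for FGB (edgeR adjusted p = 1.82e-11), by 0.44 ± 0.05 for FGA (edgeR adjusted p = 3.79e-09) and by 0.56 ± 0.07 for FGG (edgeR adjusted p = 8.01e-07), where 1.5% of tested genes were lower. For medium against low dose 3 of 36 pairs of gene and extract were called, all in CR, against 0.528% of such pairs over all tested genes. FGB in ZR was -0.22 ± 0.05 there and missed the threshold (edgeR adjusted p = 0.0902). It was called by DESeq2 (adjusted p = 0.0184), with the length slope in the edgeR fit (-0.24, adjusted p = 5.08e-05) and without the 3 libraries of lowest slope (-0.18, edgeR adjusted p = 0.0463). In ZR 4 of the 6 genes had an unadjusted edgeR p under 0.05, as did 846 of the 17129 tested genes. FGA, FGB and FGG were lower there, and CFB was higher (0.64 ± 0.28).

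Against vehicle, the medium dose of CR lowered FGB by 0.83 ± 0.05, FGA by 0.59 ± 0.05 and FGG by 0.59 ± 0.07 on the log2 scale (edgeR adjusted p = 6.03e-19, 3.53e-14 and 2.16e-08), and C3 was the fourth gene that fell there, where 11.1% of tested genes were lower. At 5.2 µg/mL FGB fell by 0.27 ± 0.05 (edgeR adjusted p = 6.81e-05) and FGA by 0.14 ± 0.05 (edgeR adjusted p = 0.0283), while FGG had -0.03 ± 0.07, and 9.15% of tested genes were lower. The call of FGA at 5.2 µg/mL was lost in 7 of 13 alternatives, among them without any 1 of the 3 vehicle libraries (log2 fold changes of -0.16 to -0.09). As a description, the log2 fold changes at 130 µg/mL against vehicle were -1.77 ± 0.05 for FGB, -1.33 ± 0.05 for FGA and -1.13 ± 0.08 for FGG, and 4 of the 6 genes lay below all vehicle libraries without overlap, where 25% of tested genes did.

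The chains did not keep a fixed ratio under CR. The ratio of FGB to FGA CPM averaged 1.06 ± 0.02 in vehicle libraries, 0.974 ± 0.0282 at 5.2 µg/mL, 0.895 ± 0.0412 at 26 µg/mL and 0.789 ± 0.0386 at 130 µg/mL (SD, n = 3 each). In wortmannin it was 1.18 ± 0.0169, and in the other 15 extract groups its mean was between 1.03 and 1.16. As a description, the log2 fold changes of wortmannin against vehicle were -0.26 ± 0.05 for FGA, -0.11 ± 0.05 for FGB and 0.14 ± 0.07 for FGG (SE). The ratio of FGG to FGA CPM averaged 0.729 ± 0.0277 in wortmannin and 0.552 ± 0.0064 in vehicle libraries (SD). The summed level of FGA, FGB and FGG was 144 ± 9.53 CPM at 130 µg/mL of CR and 392 ± 16.5 CPM in vehicle libraries.

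**Figure D2:**
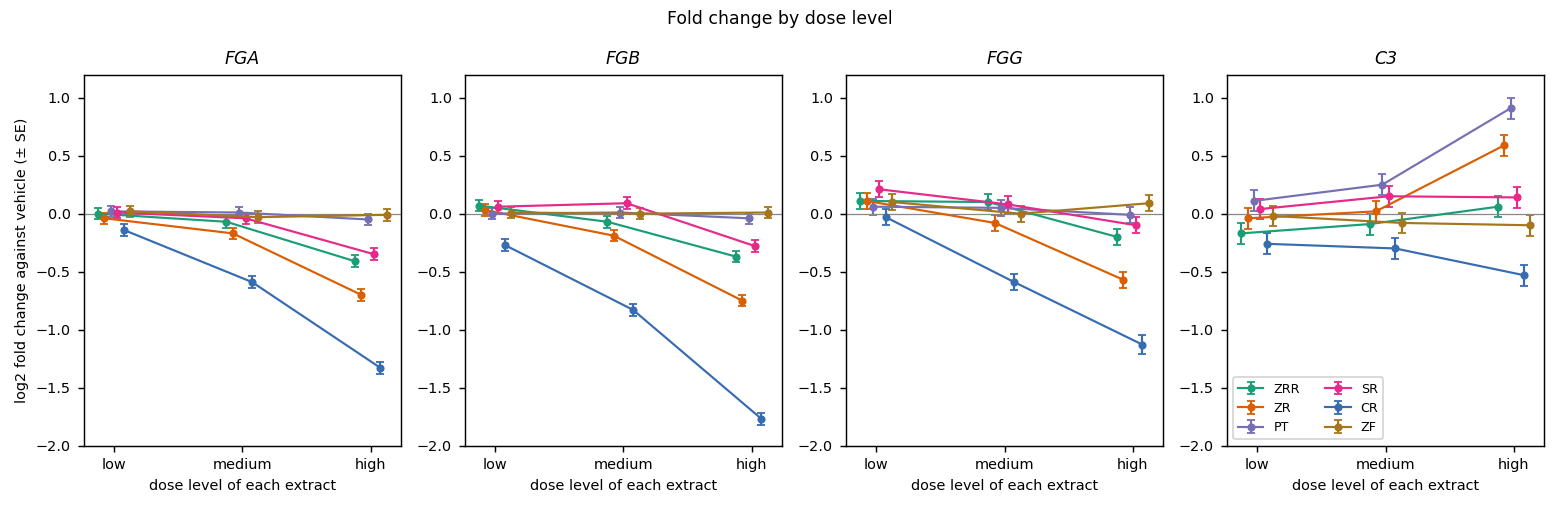
Log2 fold change against vehicle of FGA, FGB, FGG and C3 at the low, medium and high dose of each extract, with bars for the SE; the doses of SR and CR differ from the others. Under CR the fibrinogen genes fall from the low to the medium and from the medium to the high dose, to -1.77 for FGB. At the low dose of CR FGG lies near the vehicle. C3 is highest under PT, at 0.91.

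Ginger lowered the fibrinogen genes at its high dose, more in ZR than in ZRR by point estimate. At 500 µg/mL of ZR FGB had 101, 92.7 and 91.5 CPM, against 136, 143 and 141 CPM at 100 µg/mL. FGA had 91.8, 95.6 and 90.2 CPM at 500 µg/mL of ZR and 137, 129 and 135 CPM at 100 µg/mL, and FGG had 57.8, 54.5 and 55.3 CPM against 79.6, 73.9 and 80.5 CPM. None of the 3 genes overlapped between the doses, all lower at the high dose, as 15.1% of tested genes were. The log2 fold changes were -0.56 ± 0.05 for FGB (edgeR adjusted p = 7.79e-12), -0.53 ± 0.05 for FGA (edgeR adjusted p = 1.26e-11) and -0.48 ± 0.07 for FGG (edgeR adjusted p = 1.61e-05), and 2.08% of tested genes were lower.

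In ZRR FGB had 130, 121 and 120 CPM at 500 µg/mL and 151, 149 and 155 CPM at 100 µg/mL, FGA had 113, 115 and 111 CPM and 145, 137 and 147 CPM, and FGG had 75.6, 70.8 and 69.3 CPM and 91.6, 86 and 87.2 CPM. The doses of all 3 genes did not overlap, as was so in this direction for 11.5% of tested genes. All 3 fell, by 0.29 ± 0.05 for FGB (edgeR adjusted p = 0.000101), 0.34 ± 0.05 for FGA (edgeR adjusted p = 2.64e-06) and 0.30 ± 0.07 for FGG (edgeR adjusted p = 0.0219) on the log2 scale, where 0.636% of tested genes were lower. The call of FGG was lost without ZRR high replicate 2 or 3, or without any 1 of the 3 ZRR medium libraries (edgeR adjusted p = 0.0578 to 0.163), with log2 fold changes of -0.32 to -0.27.

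The doses of ginger also differed in the length slope, which was 0.275 to 0.335 in ZR high and 0.152 to 0.252 in ZR medium libraries, and 0.264 to 0.316 in ZRR high and 0.199 to 0.248 in ZRR medium libraries. With that slope as a covariate all 14 calls of the 6 genes for high against medium dose remained, and FGB was -0.51 in ZR and -0.27 in ZRR. The difference between ZRR and ZR in the effect of the high against the medium dose was 0.27 ± 0.07 for FGB, with a 95% interval of 0.13 to 0.40, and 0.19 ± 0.07 for FGA, with an interval of 0.05 to 0.32. Neither passed the test (edgeR adjusted p = 0.421 and 1), but the difference for FGB was called with the length slope in the fit (0.24, edgeR adjusted p = 0.0375).

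Changes were smaller at the lower doses of ginger. At 100 µg/mL of ZR against vehicle FGB fell by 0.19 ± 0.05 on the log2 scale (edgeR adjusted p = 0.0365), the 1 gene of the 6 called, and 0.479% of tested genes were lower. That call was lost without any 1 of the 6 libraries concerned, with log2 fold changes of -0.20 to -0.16 and edgeR adjusted p = 0.052 to 0.283. For FGA the value was -0.17 ± 0.05 (edgeR adjusted p = 0.0573), and it was called in 4 of 13 alternatives, with edgeR or DESeq2 adjusted p = 0.000252 to 0.0299. For ZRR at 100 µg/mL and for both gingers at 20 µg/mL none of the 6 genes was called by edgeR, none reached an unadjusted p of 0.05, and none was called by DESeq2, while edgeR called 0.28% of tested genes for ZRR at 100 µg/mL, 0.111% for ZRR at 20 µg/mL and 0.00584% for ZR at 20 µg/mL. As a description, the log2 fold changes at 500 µg/mL against vehicle were -0.75 for FGB, -0.70 for FGA and -0.57 for FGG in ZR, and -0.37, -0.41 and -0.20 for the same genes in ZRR.

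SR at 230 µg/mL had FGB at 128, 130 and 136 CPM, against 164, 169 and 174 CPM at 46 µg/mL, and FGA at 123, 111 and 117 CPM, against 143, 147 and 147 CPM. The doses did not overlap for these genes or for FGG, as was so in this direction for 19.6% of tested genes. FGB fell by 0.36 ± 0.05 (edgeR adjusted p = 5.18e-08) and FGA by 0.31 ± 0.05 on the log2 scale (edgeR adjusted p = 7.75e-07), where 9.42% of tested genes were lower. FGG had 83, 71.2 and 77.8 CPM at 230 µg/mL and 87.4, 87.3 and 87.4 CPM at 46 µg/mL, a log2 fold change of -0.18 ± 0.07 that did not pass the test (edgeR adjusted p = 0.0834). It was called with the length slope in the fit (-0.22, edgeR adjusted p = 0.00223) and with only the libraries concerned (-0.18, edgeR adjusted p = 0.016). CFB at 46 µg/mL of SR averaged 0.973 CPM against 0.551 CPM in vehicle libraries, and FGG at 9.2 µg/mL averaged 95.5 against 82.7 CPM. Both were thus higher than vehicle, with unadjusted p = 0.00548 and 0.00693 in edgeR. None of the 6 genes was called by edgeR or DESeq2 for SR at 46 or 9.2 µg/mL against vehicle. Of all tested genes edgeR called 0% and 0.00584% in those comparisons.

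PT and ZF left the fibrinogen genes near their vehicle levels. For 500 against 100 µg/mL of PT the log2 fold changes were -0.06 for FGA, -0.05 for FGB and -0.06 for FGG, with 95% intervals that stayed between -0.21 and 0.08. For ZF they were 0.02, 0.00 and 0.09, with intervals between -0.09 and 0.24. In ZF none of the 6 genes was called at any dose by edgeR or DESeq2, and none reached an unadjusted p of 0.05. Of all tested genes edgeR called 0.0117% for 100 and for 20 µg/mL of ZF against vehicle and 0% between those doses. For high against medium dose edgeR called 0 of the 17129 tested genes (0%), with 401 at an unadjusted p under 0.05, and DESeq2 called 2.

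The effect of raising the dose differed between extracts given at the same doses. The test was on the difference of the log2 fold changes for 500 against 100 µg/mL among ZRR, ZR, PT and ZF, in 6 pairs of extracts, and 11 of 36 pairs of gene and extracts were called, against 0.418% of such pairs over all tested genes. Except for ZRR with ZR, the extracts of a pair differ in the first number of the sample code. A dose response that differs with that number cannot be told apart from one that differs with the extract. Between ZR and ZF the difference was -0.56 ± 0.07 for FGB, -0.55 ± 0.07 for FGA and -0.58 ± 0.10 for FGG (edgeR adjusted p = 2.55e-07, 2.2e-07 and 0.000906), and 0.379% of tested genes had a lower value. Between ZR and PT it was -0.51 ± 0.07 for FGB, -0.47 ± 0.07 for FGA and -0.42 ± 0.10 for FGG (edgeR adjusted p = 5.2e-06, 1.04e-05 and 0.0317), where 0.578% had a lower value. The difference for FGG between ZR and PT was -0.26 once the length slope was a covariate and was not called (edgeR adjusted p = 0.2).

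ZRR differed from ZF by -0.36 ± 0.07 for FGA and -0.30 ± 0.07 for FGB (edgeR adjusted p = 0.00149 and 0.0347), where 0.0642% of tested genes had a lower value. It differed from PT by -0.29 ± 0.07 for FGA (edgeR adjusted p = 0.0246), where 0.152% did. The calls of FGB between ZRR and ZF and of FGA between ZRR and PT were lost in 12 and 9 of 19 alternatives. PT and ZF differed by -0.08 ± 0.07 for FGA and -0.05 ± 0.07 for FGB, with 95% intervals of -0.21 to 0.05 and -0.19 to 0.08.

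**Figure D3:**
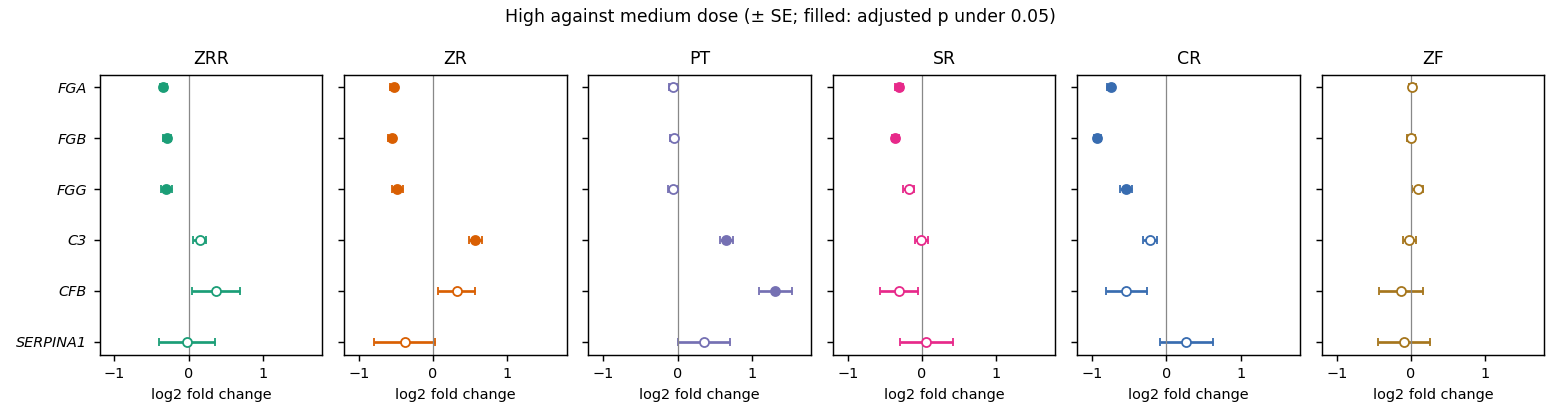
Log2 fold change of the high against the medium dose for the 6 genes in each extract, with bars for the SE; filled points have an edgeR adjusted p under 0.05. The fibrinogen genes lie left of 0 in ZRR, ZR, SR and CR, C3 lies right of 0 in ZR and PT at 0.57 and 0.66, and ZF has no filled point.

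In the order of group means, FGB was lowest in CR high at 46.9 CPM, followed by CR medium at 89.4 and ZR high at 94.9 CPM, whose libraries overlapped, and by ZRR high at 124, SR high at 132 and CR low at 132 CPM, which also overlapped. ZR medium came next at 140 CPM, and from wortmannin at 148 CPM up to SR medium at 169 CPM each group overlapped its neighbours. FGA had the same lowest groups in another order, with CR high at 59.6, ZR high at 92.5, CR medium at 99.9, ZRR high at 113 and SR high at 117 CPM, of which ZRR high and SR high overlapped. FGG ran from 37.9 CPM in CR high to 95.5 CPM in SR low, and CR medium and ZR high overlapped at 55 and 55.9 CPM.

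C3 moved apart from fibrinogen. It was highest under PT, where 500 µg/mL gave 57.3, 50.2 and 56.8 CPM, against 34.4, 35.3 and 34.5 CPM at 100 µg/mL. In ZR it had 46.4, 43.8 and 41.3 CPM at 500 µg/mL and 28.7, 31.7 and 28 CPM at 100 µg/mL. In both extracts the high-dose libraries lay above all medium-dose libraries, as they did for 6.92% of tested genes in PT and 16.3% in ZR, and C3 rose by 0.66 ± 0.09 on the log2 scale in PT (edgeR adjusted p = 3.4e-06) and by 0.57 ± 0.09 in ZR (edgeR adjusted p = 2.03e-05).

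In ZR C3 was the 1 gene of the 6 that rose, where 2.41% of tested genes did, and in PT C3 and CFB were the 2 that rose, where 0.163% did. With the length slope in the fit C3 rose by 0.74 in PT and 0.42 in ZR. In ZRR the value was 0.15 ± 0.09 (edgeR adjusted p = 0.567), with 30.8, 28.7 and 31.7 CPM at 500 µg/mL and 29.1, 25.5 and 27.5 CPM at 100 µg/mL. The difference between ZRR and ZR was -0.42 ± 0.13 (95% interval -0.68 to -0.16, edgeR adjusted p = 0.898), which was called in 1 of 19 alternatives, with no filter on low counts (-0.43, edgeR adjusted p = 0.0499).

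The rise of C3 with dose was larger in PT than in ZF by 0.68 ± 0.13 (edgeR adjusted p = 0.00622) and larger in ZR than in ZF by 0.59 ± 0.13 (edgeR adjusted p = 0.00789), where 0.035% and 0.45% of tested genes had a higher value. Without ZF high replicate 2, whose C3 level was 21.8 CPM beside 29.8 and 29.6 CPM in the other libraries of that group and whose length slope was 0.107, the difference between ZR and ZF was 0.46 (edgeR adjusted p = 0.0641). With only the libraries concerned neither difference was called (edgeR adjusted p = 1 for PT and 0.248 for ZR). Between ZRR and PT the difference was -0.51 ± 0.13 and missed the threshold (edgeR adjusted p = 0.0581), and it was called in 8 of 19 alternatives.

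Under CR C3 was lower than in vehicle libraries at every dose. It had 29.8, 28.5 and 29 CPM in vehicle libraries, 25.8, 25.8 and 21.3 CPM at 5.2 µg/mL, 26.1, 23 and 21.8 CPM at 26 µg/mL and 19.4, 20.3 and 21 CPM at 130 µg/mL. Against vehicle it fell by 0.30 ± 0.09 on the log2 scale at 26 µg/mL (edgeR adjusted p = 0.0137) and by 0.26 ± 0.09 at 5.2 µg/mL (edgeR adjusted p = 0.0466). The call at 26 µg/mL was lost without vehicle replicate 1 or CR medium replicate 3 (edgeR adjusted p = 0.0533 and 0.0915), and with the length slope in the fit the value was -0.17 (edgeR adjusted p = 0.0362). The call at 5.2 µg/mL was lost in 7 of 13 alternatives. Among them, the fit without ZR low replicate 3, ZF high replicate 2 and CR low replicate 3 gave -0.18 (edgeR adjusted p = 0.132), and the length slope as a covariate gave -0.07 (edgeR adjusted p = 0.579). CR low replicate 3, with 21.3 CPM, had a length slope of 0.121, against 0.225 and 0.237 in the other libraries of that group.

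Between the doses of CR C3 had -0.22 ± 0.09 for high against medium (edgeR adjusted p = 0.152) and -0.04 ± 0.09 for medium against low (edgeR adjusted p = 0.899). For high against medium dose it was called with the length slope in the fit (-0.30, edgeR adjusted p = 0.000163) and again without the 3 libraries of lowest slope (-0.22, edgeR adjusted p = 0.0321). In SR C3 had 29.4, 34.1 and 32.7 CPM at 230 µg/mL and 31.7, 32 and 33.3 CPM at 46 µg/mL, a log2 fold change of -0.01 ± 0.09 with a 95% interval of -0.19 to 0.17.

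As a description against vehicle, with no test, C3 was 0.91 ± 0.09 higher in PT high, 0.59 ± 0.09 higher in ZR high and 0.58 ± 0.09 higher in wortmannin on the log2 scale, and its value was -0.53 ± 0.09 in CR high. Wortmannin libraries had 43.2, 41.1 and 46.5 CPM of C3, all above the vehicle libraries. In the order of group means PT high at 54.8 CPM stood above ZR high at 43.8 and wortmannin at 43.6 CPM, which overlapped, and PT medium came next at 34.7 CPM. From SR medium at 32.3 CPM down to CR medium at 23.6 CPM each group overlapped its neighbours, and CR high was last at 20.2 CPM.

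Summed fibrinogen relative to C3 was below its vehicle value in several groups. The ratio of summed FGA, FGB and FGG CPM to C3 CPM averaged 5.56 ± 0.176 in ZR high, 7.02 ± 0.872 in PT high, 7.15 ± 0.674 in CR high and 8.38 ± 0.434 in wortmannin libraries, against 13.5 ± 0.633 in vehicle libraries (SD, n = 3 each). In ZR high summed fibrinogen was 243 ± 6.55 CPM and C3 43.8 ± 2.55 CPM, in PT high they were 382 ± 18.3 CPM and 54.8 ± 3.96 CPM, and in vehicle libraries 392 ± 16.5 CPM and 29.1 ± 0.644 CPM. In CR high both were below vehicle, at 144 ± 9.53 CPM and 20.2 ± 0.833 CPM.

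**Figure D4:**
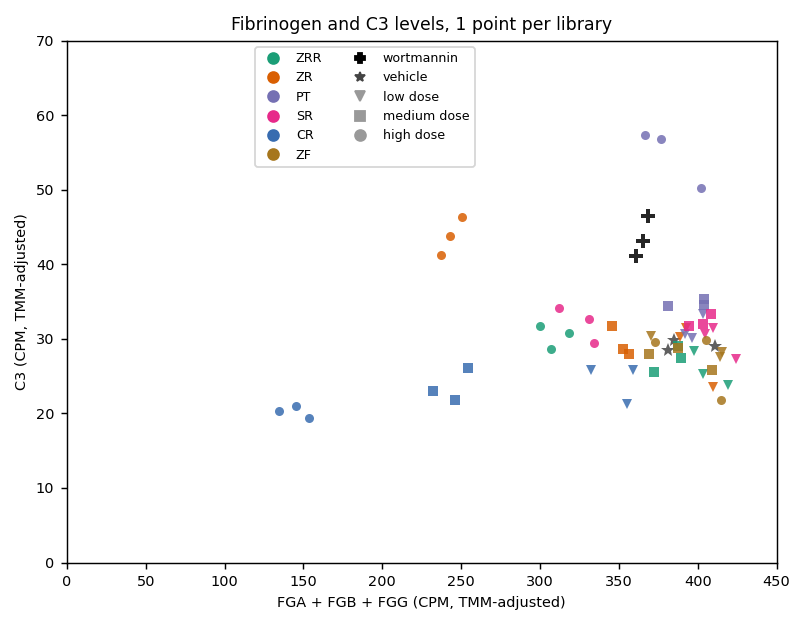
C3 against the summed CPM of FGA, FGB and FGG, 1 point per library, on linear axes from 0 (CPM, TMM-adjusted); colours mark treatments and shapes mark doses. PT high lies above the vehicle at about the same fibrinogen level, ZR high lies above and to the left, and CR high lies lowest on both axes, at means of 144 and 20.2 CPM.

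CFB was near the lower end of what was tested, and rose under PT. It had 2.43, 2.63 and 2.56 CPM at 500 µg/mL of PT (89, 57 and 65 counts), against 0.926, 1.15 and 0.973 CPM at 100 µg/mL (26, 29 and 24 counts). The groups did not overlap, and the log2 fold change was 1.32 ± 0.22 (edgeR adjusted p = 0.000476). It was called in all 13 alternatives, with edgeR or DESeq2 adjusted p = 8.9e-05 to 0.0334. The medium and low doses of PT against vehicle gave 0.87 ± 0.28 and 0.42 ± 0.29, neither of them called (edgeR adjusted p = 0.768 and 1).

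For CFB no other contrast of the 30 tested was called, and 9 of the 30 had an unadjusted p under 0.05. The rise with dose in PT exceeded that in ZF by 1.45 ± 0.38 (95% interval 0.69 to 2.21, edgeR adjusted p = 0.357) and that in ZR with a 95% interval of ZR minus PT of -1.69 to -0.32 (edgeR adjusted p = 0.107). That difference between ZR and PT was called without the 3 libraries of lowest slope (edgeR adjusted p = 0.0411). As a description against vehicle, the log2 fold changes were 2.19 ± 0.25 in PT high, 1.63 ± 0.26 in wortmannin and 1.07 ± 0.27 in ZR high. Wortmannin libraries had 1.41, 1.92 and 1.81 CPM, ZR high libraries 1.2, 1.39 and 0.91 CPM and vehicle libraries 0.457, 0.627 and 0.568 CPM. In CR high, where fibrinogen and C3 were lowest, CFB had 0.612, 0.378 and 0.664 CPM and overlapped the vehicle.

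SERPINA1 was weakly expressed and was called in none of the 30 tested contrasts by edgeR, with none at an unadjusted p under 0.05, nor by DESeq2. Its group means lay between 0.443 CPM in ZR high and 0.778 CPM in PT low, a range of 1.76-fold, while replicates of a group had a median SD of 29.5% of their mean. ZR high had 0.444, 0.449 and 0.435 CPM (10, 10 and 11 counts) and vehicle libraries 0.457, 0.823 and 0.878 CPM (11, 21 and 17 counts). These did not overlap, although the nearest libraries had 0.449 and 0.457 CPM, and 11.7% of tested genes lay below vehicle without overlap. The log2 fold change for ZR high against medium dose was -0.38 ± 0.41, with a 95% interval of -1.21 to 0.44, and a difference was not detectable at this depth. One library, ZF high replicate 2, had 1.23 CPM beside 0.418 and 0.467 CPM.

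In all, 14 of 36 pairs of gene and extract were called for high against medium dose, 3 higher and 11 lower, against 5.68% of such pairs over all tested genes. For medium dose and low dose against vehicle 5 and 3 of 36 were called, all lower, against 4.08% and 2.96%. The 3 calls at low dose were all in CR. 

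For high against medium dose the shares of all tested genes called higher and lower were 0.811% and 0.636% in ZRR, 2.41% and 2.08% in ZR, 0.163% and 0.0117% in PT, 11% and 9.42% in SR, 3.59% and 3.94% in CR and 0% in ZF. Of 22 genes of other clotting proteins, 14 were tested, and for high against medium dose 2 rose and 1 fell in CR, 3 rose and 1 fell in SR, and 1 rose in each ginger, with medians of -0.09 to 0.10 over the 6 extracts against 0.001 to 0.007 over all tested genes. F2, the gene of prothrombin, fell by 0.38 ± 0.10 in CR and by 0.50 ± 0.11 in SR on the log2 scale (edgeR adjusted p = 0.0261 and 0.000417). The plasminogen activator PLAU rose by 0.20 ± 0.05 in ZR, 0.27 ± 0.04 in CR and 0.38 ± 0.05 in SR (edgeR adjusted p = 0.0049, 2.03e-05 and 3.66e-09), and TFPI, the inhibitor of the tissue factor pathway, rose by 0.19 ± 0.05 in ZRR and 0.51 ± 0.05 in SR (edgeR adjusted p = 0.0205 and 2.29e-12).

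Among complement genes other than C3 and CFB, 17 of 24 were tested. For 500 against 100 µg/mL of PT, where C3 and CFB rose, the classical pathway proteases C1R and C1S were higher, with log2 fold changes of 0.25 ± 0.05 and 0.18 ± 0.03 (edgeR adjusted p = 0.0136 and 0.00133), and none fell. Vitronectin (VTN), which restrains the terminal complex, fell by 0.36 ± 0.09 in ZR and 0.49 ± 0.10 in CR (edgeR adjusted p = 0.0174 and 0.000302), the extracts in which fibrinogen fell most. CLU fell in ZR by 0.25 ± 0.07 and C1S in CR by 0.17 ± 0.03 (edgeR adjusted p = 0.028 and 0.000423). CD55, a membrane inhibitor of the convertases, rose by 0.49 ± 0.06 in SR and 0.21 ± 0.06 in CR (edgeR adjusted p = 3.5e-08 and 0.0223), and CD59, which blocks the terminal complex, fell by 0.29 ± 0.06 in ZRR and 0.18 ± 0.06 in SR (edgeR adjusted p = 0.00399 and 0.0275). The higher levels of C1R and C1S were not particular to PT. As a description, C1R averaged 40.5 ± 0.466 CPM in wortmannin, 29.5 ± 1.23 CPM in PT high and 22.4 ± 1.25 CPM in vehicle libraries (SD). C1S averaged 96.4 ± 2.24, 72.1 ± 1.63 and 56.7 ± 1.32 CPM in the same groups.

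Most acute phase genes of the liver were not expressed at a testable level. Of 23 listed, 8 were tested, and CRP, SAA1, HP, ORM1 and ALB had at most 2, 7, 6, 4 and 6 counts in any library. LCN2, which binds bacterial siderophores, rose by 1.58 ± 0.23 in PT, 0.89 ± 0.29 in SR and 0.84 ± 0.24 in CR for high against medium dose (edgeR adjusted p = 3.8e-05, 0.0243 and 0.0214). No other of the 8 was called, and none was called in ZRR, ZR or ZF by edgeR.

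Of the hepatocyte transcription factors, 11 of 12 were tested. For high against medium dose HNF4A fell by 0.45 ± 0.06 in SR and 0.37 ± 0.06 in CR (edgeR adjusted p = 1.64e-08 and 5.3e-06), and CEBPD fell by 0.45 ± 0.14 in CR (edgeR adjusted p = 0.0401). NR5A2 rose by 0.29 ± 0.08 in ZRR and 0.26 ± 0.08 in ZR (edgeR adjusted p = 0.0404 and 0.0354). As a description, HNF4A averaged 111 ± 3.98 CPM in vehicle libraries (SD, n = 3 each). At the high dose it averaged 62.4 ± 2.12 CPM in CR, 80.2 ± 1.69 CPM in ZR and 82.6 ± 2.43 CPM in SR. Its high-dose averages were 93 ± 2.97 CPM in ZRR, 94.4 ± 5.53 CPM in PT and 107 ± 9.29 CPM in ZF. The part of HNF4A in the fibrinogen values was not tested.

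Of the IL-6 family genes, 15 of 16 were tested and IL6 itself had at most 6 counts in a library. SOCS3, a feedback inhibitor induced by STAT3, rose by 0.35 ± 0.05 in CR and 0.73 ± 0.05 in SR, where fibrinogen fell (edgeR adjusted p = 3.86e-06 and 3.76e-15). IL11 fell by 0.46 ± 0.08 in ZRR, 0.52 ± 0.07 in ZR and 0.50 ± 0.07 in CR (edgeR adjusted p = 0.000119, 3.27e-06 and 1.71e-06), and LIF rose by 0.20 ± 0.06 in ZR and 0.62 ± 0.06 in SR (edgeR adjusted p = 0.0216 and 1.02e-12). In SR 6 of the 15 rose, among them PIM1 by 0.33 ± 0.06 and JUNB by 0.50 ± 0.09 (edgeR adjusted p = 1.79e-05 and 1.88e-05), and 1 fell. At most 1 was called in each direction in the other extracts, and the median over the list was between -0.02 and 0.09 in the 6 extracts.

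All 17 genes of the NF-kB list were tested. For high against medium dose 10 rose in ZR, 11 in PT, 14 in SR, 6 in CR and 1 in ZRR, 1 fell in CR, and none was called in ZF, with medians of 0.39 in ZR, 0.43 in PT, 0.63 in SR, 0.26 in CR, 0.01 in ZRR and -0.03 in ZF. Between the medium and low doses of CR 5 of the 17 were called, all higher. As a description against vehicle, the medians at the high dose were 0.82 in CR, 0.71 in ZR, 0.70 in PT, 0.54 in SR, 0.08 in ZRR and 0.04 in ZF, against 0.001 to 0.008 over all tested genes. In wortmannin, where C3 and CFB were above vehicle, the median was 0.11, with single genes from -0.21 to 1.23, against 0.01 over all tested genes. The chemokine CXCL8 rose by 1.3 ± 0.19 in ZR and 2.04 ± 0.18 in PT (edgeR adjusted p = 5.26e-06 and 4.66e-11), extracts in which C3 rose. It rose by 2.61 ± 0.21 in SR, whose doses differ from theirs (edgeR adjusted p = 1.99e-14), and there C3 had -0.01 ± 0.09. CXCL5 rose by 0.69 ± 0.05 in ZR, 0.77 ± 0.05 in PT, 0.91 ± 0.05 in SR and 0.47 ± 0.05 in CR (edgeR adjusted p = 4.47e-14, 2.17e-15, 8.78e-20 and 2.46e-09), and C3 was below its vehicle level in CR. In the interferon list of 10 genes at most 1 was called in each direction in any extract, and in SR OAS1 fell by 0.33 ± 0.07 and STAT2 rose by 0.18 ± 0.06 (edgeR adjusted p = 0.000436 and 0.0393).

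All 8 genes of the integrated stress response list rose in SR for high against medium dose, with a median of 1.25, and 3 rose in each of ZRR, ZR and CR, with medians of 0.17, 0.14 and 0.17, against 0.001 to 0.007 over all tested genes. In CR 4 of the 8 also rose for medium against low dose. As a description against vehicle, the medians at the high dose were 1.2 in SR, 1.19 in CR, 0.50 in ZRR and 0.44 in ZR. TRIB3 rose by 2.42 ± 0.07 in SR, 0.65 ± 0.06 in ZRR, 0.53 ± 0.06 in ZR and 0.35 ± 0.06 in CR (edgeR adjusted p = 9.29e-32, 8.68e-10, 7.57e-08 and 5.47e-05). TRIB3 averaged 65.2 ± 4.04 CPM in vehicle libraries and 175 ± 4.08, 259 ± 13.1 and 330 ± 6.49 CPM at 5.2, 26 and 130 µg/mL of CR, and it averaged 350 ± 25.9 CPM at 230 µg/mL of SR (SD, n = 3 each). None of the 8 was called in PT or ZF by edgeR for high against medium dose. Of the 6 neighbouring SERPINA genes 2 were tested, SERPINA3 and SERPINA6, and neither was called.

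Across the 20 group means of log2 CPM FGA and FGB were each other's closest gene among 12418 genes that have a symbol and average 1 or more in log2 CPM, and FGB was the closest to FGG. The Pearson correlation was 0.981 between FGA and FGB, 0.979 between FGB and FGG and 0.957 between FGA and FGG, and the Spearman correlations were 0.83, 0.794 and 0.678. The genes were measured in the same libraries and share the low values of CR high, ZR high and CR medium, so these are descriptions. After FGB, the genes most like FGA were TM4SF4 (0.978), CXXC5 (0.972), KRT8 (0.969) and CCND3 (0.963). After FGA and FGG, those most like FGB were SGK1 (0.975), KRT8 (0.969) and CXXC5 (0.969), and after FGB those most like FGG were INSL4 (0.977), CXXC5 (0.976), VTN (0.969) and KRT18 (0.967).

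KRT8 and KRT18, keratins of simple epithelia, fell for high against medium dose in 2 of the 4 extracts in which fibrinogen genes fell, by 0.45 ± 0.08 and 0.41 ± 0.09 in ZR and by 0.42 ± 0.08 and 0.35 ± 0.09 in CR (edgeR adjusted p = 6.21e-05, 0.00256, 7.99e-05 and 0.00693), and neither was called in ZRR or SR. Their part in the fibrinogen values was not tested.

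C3 correlated at 0.233 to 0.333 with the fibrinogen genes over the same 20 means, and at 0.856 with CFB, which had C3 as its most similar gene. CFB was too low to be among the 12418 genes compared. Of those genes the most like C3 were ACO1 (0.845), NAB1 (0.8), TAPBP (0.789), TNS3 (0.787) and KIAA0408 (0.782), all below the value for CFB. Those next to C3 for CFB were C1R (0.76), LRRC1 (0.754), TAPBP (0.741) and TNK2 (0.727). SERPINA1, with its wide counting error, had no gene above 0.664, the value of RNF19A, followed by SIK1 (0.61), CLINT1 (0.596), MUC13 (0.589) and CRYAB (0.576).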

How the data were processed

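RNA-seq was measured in 60 libraries (MGIEasy directional mRNA kit, paired 100-base reads, per the labels' protocols). Tools named, per the submitters' processing notes, were STAR 2.7.3a, RSEM 1.3.3, Trim Galore 0.6.5 and FastQC 0.11.9, with the build GRCh38. Strand setting and annotation release were not given in the sources used here. Estimated counts per gene were deposited by the authors, unnormalised; 90.9% were whole, and all were rounded to whole numbers. The table has 209 other columns of values, which were not used. Identifiers were named from a current symbol table (56558) or GENCODE 29 (497), and 3620 had no name. Depth was 17420358 to 36479611 per library, and intervals cover the spread between samples and counting error.

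In R 4.3.3, edgeR 4.0.16 (TMM, filterByExpr, robust quasi-likelihood test, limma 3.58.1) was fitted to all 60 libraries with 1 term per group and 40 residual degrees of freedom, and p-values were adjusted over the 17129 tested genes of each contrast. The rule for named list genes was up to 4 called genes of each list and contrast, by p. DESeq2 1.42.0, DESeq2 size factors, no filter, a replicate block, a length-slope covariate, leaving out libraries and fitting only the libraries concerned were alternatives. Leaving out the 3 libraries of lowest length slope was chosen after seeing the data. The genes most like each member were the 5 of highest Pearson correlation. Some of the genes this rule names are not reported here. The scripts were tested on simulated data. Members and lists were chosen with earlier results of these data known.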

Additional observations from a re-analysis of the deposited data

Results flagged for a closer look

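The effect of 500 against 100 µg/mL differed between extracts by the test of the difference itself in 11 cases (edgeR adjusted p under 0.05, log2 scale). For FGA it was lower in ZRR than in PT and ZF by differences of -0.29 and -0.36, and lower in ZR than in PT and ZF by differences of -0.47 and -0.55. For FGB the difference was -0.30 for ZRR minus ZF, -0.51 for ZR minus PT and -0.56 for ZR minus ZF. For FGG it was -0.42 for ZR minus PT and -0.58 for ZR minus ZF. For C3 it was 0.59 for ZR minus ZF and 0.68 for PT minus ZF. The differences share libraries with each other, all are between extracts whose sample codes begin with different numbers, and what lies behind them was not tested.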

How the results depend on the processing

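No tested pair of gene and contrast that was called in some fit changed direction under any alternative. Values given as a description were not scored for direction. Of those described values, 12 moved by at least the SD of replicates once the slope was fitted, and 3 did once the 3 libraries of lowest slope were dropped. Of the tested pairs, 2 calls were lost and 9 gained with the slope fitted. Without the 3 libraries 2 were lost and 5 gained. Of 36 pairs of gene and extract in each family of contrasts, the calls numbered 13 to 14 for high against medium dose when 1 library was left out, 3 for medium against low dose, 3 to 5 for medium dose against vehicle (3 without vehicle replicate 1), 1 to 3 for low dose against vehicle (1 without any 1 of the vehicle libraries or CR low replicate 3) and 9 to 12 for the differences between extracts. With only the libraries concerned in the fit the differences called numbered 6, and the cause was not tested. With the replicate number as a block the counts were 14, 3, 5, 2 and 11, and the call lost was C3 in CR low against vehicle (-0.26, edgeR adjusted p = 0.0503). Deviations of libraries with the same replicate number had a median correlation of 0.00124 over 570 pairs, with 0.119 of the pairs above 0.1. These pairs mix libraries of the same and of different first numbers of the sample code. Pairing among libraries that share a first number was therefore not tested. Over all tested genes and 6 contrasts edgeR called 5840 for high against medium dose (5772 to 9498 over the alternatives), 543 (58 to 1510) for medium against low, 4190 (4146 to 9142) for medium and 3047 (2343 to 5812) for low dose against vehicle and 430 (415 to 3942) for the differences. Depth limits CFB and SERPINA1, with at most 89 and 32 counts in a library.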
